A study of Mus musculus with 2 samples.

Results

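Among 15930 cells dissociated from mouse hippocampus, 627 cells, described here as excitatory neurons, combined the transcription factor Mef2c with genes of cortical excitatory neurons and had little or none of the hippocampal factor Zbtb20. They were chosen by the values of 9 genes: Mef2c at 3 or more, at least 2 of the 5 genes Cux2, Rorb, Rasgrf2, Efna5 and Il1rapl2 at 2 or more, Zbtb20 at 3 or less, and Gad1 plus Gad2 together at 2 or less. The wild-type library gave 139 of them and the knock-in library 488. These 9 genes made the choice, so their levels are given as a description. The working name of the selection was cortex-like excitatory neurons with Cux2, Rorb and Mef2c.

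The cells came from C57Bl.6/J mice of 2 genotypes, wild-type controls and animals homozygous for the knock-in allele Pigv341E. Pigv encodes a mannosyltransferase that helps to build the glycosylphosphatidylinositol (GPI) anchor, a glycolipid that holds a set of proteins on the cell surface. For each genotype, 8 hippocampi from 4 mice were dissociated by mechanical means at a low temperature, and their cells were pooled into 1 droplet library. Sex and age are not given in the sources used here. There was no replicate library, so no test between genotypes could be made. An effect of the genotype cannot be told apart from a difference between the pools in dissection or library preparation.

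The neocortex is built of layers whose excitatory neurons differ in gene expression. Cux1, Cux2, Lamp5 and Otof mark the upper layers, Rorb and Rspo1 mark layer 4, and Tshz2 marks a deep-layer class named for its short-range projections and also neurons of the retrosplenial cortex. The hippocampal formation borders this tissue through the subiculum, the presubiculum and the entorhinal cortex, whereas Zbtb20 is a repressor typical of pyramidal neurons of CA1 and CA3 and of dentate granule cells.

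The deposited values were whole numbers corrected for depth, so the sequencing depth of a cell was unknown and low values may not be counted molecules. The median total per selected neuron was 10074 (wild-type) and 10145 (knock-in), with 4192 and 4427.5 detected genes. Over all cells, the medians were 8631 and 9608 for the total and 3122 and 3736 for detected genes. The selected neurons differed between the libraries in the level of the nuclear RNA Malat1, 124 against 204 per 10000, and in the median share of mitochondrially encoded transcripts, 0.0296% against 0.0794%. Their part in the differences below was not tested. A level below is a gene's part of all values in a group of cells, scaled to 10000. In all, 28 cell barcodes occurred in both libraries, and 0 of them belonged to a selected neuron.

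The selected neurons made up 1.96% of the wild-type library (139 of 7094 cells, exact Clopper-Pearson 95% interval 1.65 to 2.31%) and 5.52% of the knock-in library (488 of 8836 cells, 5.06 to 6.02%), a ratio of 2.82. The ratio was 1.69 with no limit on Zbtb20 and 4.38 when 3 of the 5 genes were required. These and later intervals cover counting error only, not the variation between mice or dissections. The other excitatory neurons, defined by Slc17a7 at 2 or more and Gad1 plus Gad2 at 2 or less, made up 32.0% and 33.6%, a ratio of 1.05. For hippocampal types set by their own marker genes, the ratio of shares was 1.05 for CA1 neurons, 0.915 for CA3 neurons and 0.791 for dentate granule cells. A small set chosen by Fn1, a gene of the dorsal subiculum, made up 0.338% (0.217 to 0.503%) and 0.498% (0.362 to 0.668%), with overlapping intervals and a ratio of 1.47. The plot of shares by library sets these values side by side.

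**Figure D1:**
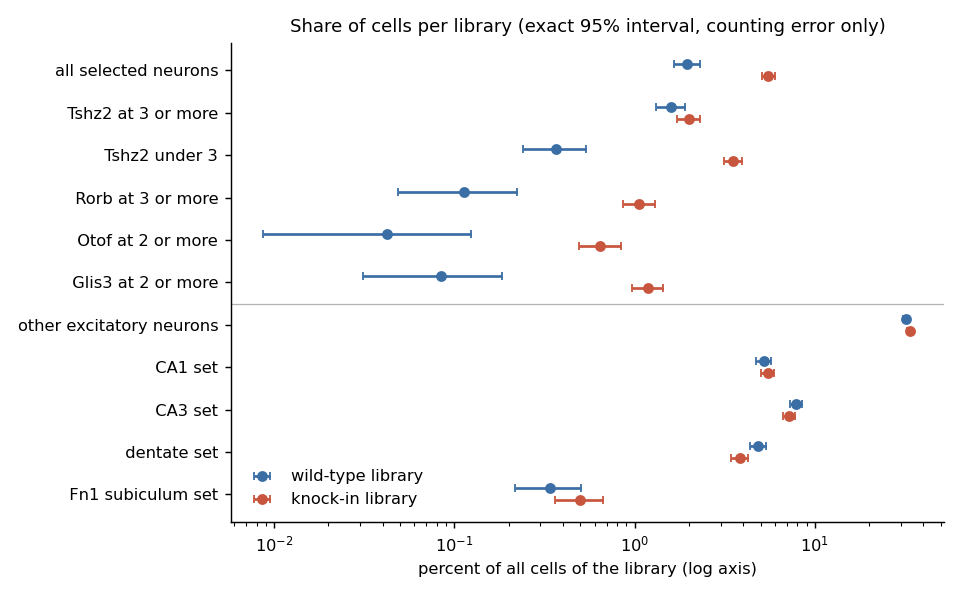
Share of each set of cells in the wild-type (blue) and knock-in (red) library, as percent of all cells of the library on a log axis, with exact 95% intervals for counting error. The selected neurons lie at 1.96% and 5.52%, those with Tshz2 at 3 or more nearly level at 1.59% and 2.00%, and those with Tshz2 under 3 far apart at 0.367% and 3.52%, while the ratios of the hippocampal sets below the line run from 0.791 to 1.47.

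The genes of the rule were carried unevenly. Mef2c (chromosome 13, 83504034 to 83667080, plus strand, GRCm38), a factor of maturing cortical neurons, reached levels of 7.59 (wild-type) and 12.4 (knock-in) per 10000 against 2.11 in the other excitatory neurons. Wild-type and knock-in levels are given in this order from here on. Cux2 (chromosome 5, 121856366 to 122050102, minus strand), a homeobox factor of upper-layer neurons, was at 7.06 and 5.13 against 0.295. It reached 2 in 490 of the 627 neurons. Efna5 (chromosome 17, 62604184 to 62881317, minus strand), a GPI-anchored ligand of Eph receptors, was at 6.84 and 10.4 against 0.763 and reached 2 in 502 neurons. Neither Cux2 nor Efna5 reached 2 in 9 of the neurons. Rasgrf2 (chromosome 13, 91880400 to 92131656, minus strand), an exchange factor for Ras and a marker of upper cortical layers, was at 1.34 and 2.03 against 0.731. Il1rapl2 (chromosome X, 137570608 to 138846946, plus strand), a relative of a synaptic adhesion receptor, was at 4.12 and 6.48 against 1.52. Rorb (chromosome 19, 18930605 to 19111196, minus strand), a nuclear receptor of layer 4, was at 0.560 and 2.30 against 0.605.

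Rorb was the exception among these genes, because it reached 2 in 116 of the 627 neurons, 10 wild-type and 106 knock-in. The working name therefore fitted Mef2c and Cux2 better than Rorb. Cux2 and Il1rapl2 tended to occur in different neurons: Il1rapl2 reached 2 in 25.1% of the neurons with Cux2 at 2 or more and in 76.6% of those without, a contrast that the rule favours since each neuron needed 2 of the 5 genes. Exactly 2 of the 5 genes were present in 317 neurons, 3 in 240, 4 in 62 and all 5 in 8.

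The limits of the rule ran through a continuous range of cells. Mef2c stood at its limit of 3 in 41 selected neurons, and a further 50 cells with Mef2c at 2 met every other limit. Tshz2 was at 18.8 per 10000 in the former and 22.9 in the latter. A further 296 cells had 1 of the 5 genes; the microglial gene C1qa was at 6.23 per 10000 in them against 1.09 in the neurons with exactly 2 of the 5 genes. The limit on Zbtb20 removed 521 cells, 230 wild-type with a median Zbtb20 value of 27 and 291 knock-in with a median of 21. Prox1, a factor of dentate granule cells, was at 1.57 and 1.19 per 10000 in these removed cells, against 0.029 in the selected neurons. The limit on Gad1 and Gad2, which make the transmitter GABA, removed 131 cells.

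Genes that the rule did not use included general genes of excitatory neurons. Camk2a, a kinase of excitatory synapses, was above 0 in 98.9% of them, and Slc17a7, the main vesicular glutamate transporter of the forebrain, in 73.7%. Slc17a7 reached 2 in 50 of 139 wild-type and 208 of 488 knock-in neurons. Their levels were lower than in the other excitatory neurons, at 8.56 against 11.6 per 10000 for Camk2a and 1.43 against 2.98 for Slc17a7, which chose the other excitatory neurons. Of 10 general excitatory genes 9 were above 0 in at least 25% of the selected neurons and the median log2 ratio was -0.16. Camk4, a kinase that acts on transcription, was higher, at 3.26 against 1.34.

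Lists of region and layer genes were then counted. A list gene was called marked when its level in the selected neurons was at least 1.5-fold that in the other excitatory neurons, with 0.1 added to both, and at least 25% of the selected neurons were above 0. Of 6549 genes above 0 in that share of the neurons, 10.2% were marked. The median log2 ratio over these genes was 0.06, whereas over the list genes that could be marked it was 2.47 for the near-projecting list, 1.81 for the retrosplenial and presubicular list, 1.72 for the subicular list, 1.55 for the layer 4 list, 1.06 for the upper-layer list and -0.03 for the entorhinal list. The near-projecting, subicular and entorhinal values rest on 2, 2 and 1 genes. Over 14 region lists, 33 of 98 measured genes were above 0 in at least 25% of the neurons, and 19 of these were marked. Within single libraries the background was 12.2% of genes for wild-type and 9.89% for knock-in neurons, and the upper-layer list gave 2 and 4 marked genes, the layer 4 list 5 and 4, the near-projecting list 2 and 2 and the entorhinal list 0 and 0.

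Upper-layer and layer 4 genes gave the largest counts. Marked upper-layer genes were 4 of 10, out of 6 above 0 in enough neurons. Pdzrn3, a ubiquitin ligase of the synapse, was at 9.71 and 6.59 per 10000 against 0.468 in the other excitatory neurons. Cux1, the close relative of Cux2, was at 3.55 and 3.68 against 1.01. Lamp5 was at 0.131 and 0.477 against 0.085, and the cortical selector gene Lhx2 at 0.233 and 0.353 against 0.166. Both genes thus stayed low in wild-type neurons. Marked layer 4 genes were 5 of 9, out of 6 above 0 in enough neurons. Unc5d, a receptor for netrins, was at 13.5 over both libraries against 1.67, and the potassium channel gene Kcnh5 at 2.59 and 3.34 against 0.452. Whrn, Zmat4 and Plcxd2 were the other three. The levels of these over both libraries were 0.536 against 0.144, 5.59 against 2.87 and 0.392 against 0.050.

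Deep-layer genes were few, except for those of the near-projecting class. Tshz2 (chromosome 2, 169633013 to 170071816, plus strand), a zinc-finger factor, was at 13.7 per 10000 in the selected neurons against 2.64, and Vwc2l, a secreted protein, at 2.67 against 0.355. They were 2 of the 5 near-projecting genes. Of 9 layer 5 genes 1 was marked, Deptor, an inhibitor of mTOR signalling, at 0.785 and 0.676 against 0.266. The layer 5 regulator Bcl11b was lower in the selected neurons, at 0.367 against 2.97, and it was at 4.48 in CA1 neurons. The layer 6 list of 8 genes gave 0 marked genes, as did the layer 6b list of 5 genes.

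Entorhinal and subicular genes were mostly below the limit of 25% of neurons. The entorhinal list of 10 genes gave 0 marked genes, with 1 gene above 0 in enough neurons: Trps1, a zinc-finger repressor, at 3.49 against 3.56 per 10000. Reln, the secreted glycoprotein of layer 2 of the entorhinal cortex, was at 0.590 against 0.499. Of 10 subicular genes 2 were above 0 in enough neurons and both were marked, Slc17a6, a second vesicular glutamate transporter, at 0.419 against 0.067, and the adhesion protein gene Cntn6 at 2.14 against 0.546. Fn1, which was at 6.39 in the small subicular set chosen by it, was at 0.230 in the selected neurons. Of 6 retrosplenial and presubicular genes 2 were marked, Tshz2 and Rxfp1, the relaxin receptor, at 0.933 against 0.195. These genes were shared with the small subicular set, in which Tshz2 was at 19.7, Rxfp1 at 2.45 and Cntn6 at 5.21.

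Hippocampal genes were mostly low. Of 8 genes of CA3 and CA2 and 9 dentate genes 0 were marked. Mpped1, a gene of CA1 neurons, was marked, at 1.48 against 0.867. Prox1 was at 0.029 per 10000 against 0.891. Outside the lists, the genes of lowest ratio were St18, Maml2, Dock10, Sema5a and Nfia. St18, a zinc-finger factor, was at 0.160 and 0.150 in wild-type and knock-in selected neurons against 4.66, a log2 ratio of -4.24 over both libraries. Nfia, a factor of glial and hippocampal development, was at 0.356 and 0.595 against 5.60. Dock10, an exchange factor for small GTPases, was at 0.656 per 10000 in CA1 neurons, 5.34 in CA3 neurons and 12.6 in dentate granule cells against 0.532 in the selected neurons. Its low level thus set the selected neurons apart from CA3 and dentate cells, not from CA1 neurons.

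The leading genes outside the rule were shared by both libraries. Dpp10, a subunit of A-type potassium channels, was at 13.9 and 15.9 per 10000 against 1.53 in the other excitatory neurons. Nrg1, a ligand of ErbB receptors, was at 28.4 and 33.1 against 6.34. Sgcz, a sarcoglycan, was at 36.1 and 22.4 against 2.59. The acetylcholine receptor gene Chrm2 was at 1.57 and 1.28 against 0.106, and the calcium-binding protein gene Necab1 at 2.47 and 2.87 against 0.372. The log2 ratios of these genes over both libraries ran from 2.32 for Nrg1 to 3.26 for Dpp10.

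Among lists of surface and synaptic proteins, cell adhesion and guidance genes gave 13 marked of 41 above 0 in at least 25% of the neurons, where 10.2% of all such genes were marked. The other lists are counted over the same kind of genes. Pcdh15, a protocadherin, was at 13.5 per 10000 against 2.70, and Pcdh7 at 9.62 against 2.84. Of 26 genes for GPI-anchored proteins 10 were marked, 4 of them contactins: Cntn5 was at 17.4 against 4.27, Cntn4 at 9.82 against 3.24, Cntn3 at 7.38 against 2.73 and Cntn6 as given above. The heparan sulfate proteoglycan gene Gpc6 was at 9.76 against 1.24. Of 10 genes of GPI biosynthesis 1 was marked, Pgap1, which remodels the anchor, at 1.02 against 0.301. Of 21 glutamate receptor genes 4 were marked, led by Gria4, an AMPA receptor subunit, at 11.9 against 2.39, and Grm8 at 5.71 against 1.38. Of 25 channel genes 6 were marked, among them Kcnq5 at 18.3 against 8.18. The Eph receptor, ephrin and Abl list gave 1 of 11 genes, the ligand gene Efnb2, at 0.692 against 0.277. Epha6 and Epha7 were lower in the selected neurons, at 9.42 against 22.3 and 1.94 against 6.67.

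The selected neurons were a mixture, and Tshz2 divided it. The median Tshz2 value was 28 for wild-type (quartiles 6 and 38, highest 69) and 0 for knock-in neurons (quartiles 0 and 21, highest 83). In the wild-type library 89 of 139 neurons were at 20 or more and 7 at 0. In the knock-in library 126 of 488 were at 20 or more and 269 at 0. Between these ends, values of 1 to 2 were found in 19 wild-type and 42 knock-in neurons, 3 to 4 in 7 and 15, 5 to 9 in 5 and 15, and 10 to 19 in 12 and 21. A limit of 3 was set after these values had been seen, and it divides a range rather than 2 types.

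**Figure D2:**
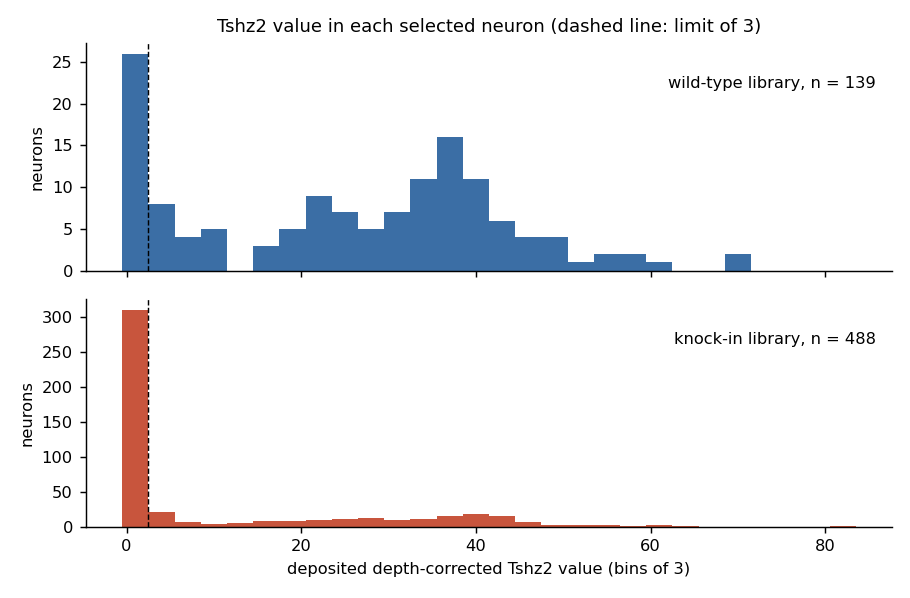
Number of selected neurons by deposited Tshz2 value, in bins of 3, in the wild-type library (n = 139, top) and the knock-in library (n = 488, bottom), each panel with its own vertical scale and a dashed line at the limit of 3. Both libraries have neurons spread from about 10 upward, and the knock-in library has 311 neurons below the limit where the wild-type library has 26.

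Neurons with Tshz2 at 3 or more made up similar shares of the libraries, 1.59% of wild-type cells (113 neurons, 1.31 to 1.91%) and 2.00% of knock-in cells (177 neurons, 1.72 to 2.32%), with overlapping intervals and a ratio of 1.26. Neurons with Tshz2 under 3 made up 0.367% of wild-type cells (26 neurons, 0.240 to 0.537%) and 3.52% of knock-in cells (311 neurons, 3.15 to 3.93%), a ratio of 9.60. Most of the difference in the share of selected neurons thus lay in neurons with little or no Tshz2. Low Tshz2 values were themselves more common in the wild-type library: a value of 3 or more was found in 19.6% of wild-type and 9.17% of knock-in other excitatory neurons, and a value above 0 in 73.2% and 17.4%. At a limit of 10 those shares were 5.51% and 5.43%. With that limit the selected neurons gave 1.42% and 1.66% at or above it, a ratio of 1.17, and a ratio of 7.20 below it.

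The neurons above and below the Tshz2 limit carried different layer genes, with both libraries pooled. The Tshz2-low set held 26 wild-type and 311 knock-in neurons, and the Tshz2-high set 113 and 177. The contrast here and below is thus mixed with a difference between the libraries. Within the Tshz2-low neurons, the log2 ratio of knock-in over wild-type was 1.92 for Nectin3, 1.58 for Glis3 and 0.32 for Rorb. Of 6327 genes above 0 in at least 25% of the Tshz2-high neurons, 11.3% were marked over the other excitatory neurons, and of 6676 such genes in the Tshz2-low neurons 10.5% were. Tshz2-low neurons had 7 of 10 upper-layer genes marked: Cux1, Otof, Lamp5, Stard8, Lhx2, Pdzrn3 and Nectin3. Tshz2-high neurons had 2, Cux1 and Pdzrn3. Otof, a calcium sensor of vesicle release, was at 0.653 per 10000 in Tshz2-low neurons and 0.093 in Tshz2-high neurons. Nectin3, a cell adhesion molecule, was at 2.37 and 0.355, and Rorb at 2.94 and 0.724. Glis3, a zinc-finger factor on the dentate list, was at 2.10 and 0.286.

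Layer 4 genes ran the other way in part, with 5 of 9 marked in Tshz2-high and 3 of 9 in Tshz2-low neurons. Zmat4 accounted for much of this, at 9.01 and 2.67 per 10000. Vwc2l was at 5.02 and 0.662, and Slc17a6 at 0.666 and 0.209. Of 60 selected neurons with Slc17a6 at 2 or more, 50 had Tshz2 at 3 or more. The retrosplenial and presubicular list gave 2 marked genes in Tshz2-high neurons, Rxfp1 and Tshz2, which made the division, and 0 in Tshz2-low neurons. The entorhinal list gave 1 of 10 genes in each, Wfs1 in Tshz2-high neurons and Reln in Tshz2-low neurons.

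Pairs of genes in single neurons showed the same division. Rorb at 3 or more was found in 102 selected neurons, 19 of which had Tshz2 at 3 or more. Otof at 2 or more was found in 60, of which 3 were Tshz2-high, and 1 neuron had both Rorb at 3 or more and Otof at 2 or more. Rorb and Otof, from the layer 4 and upper-layer programmes, were thus seldom high in the same neuron. Both were rare in the wild-type selected neurons. Rorb at 3 or more was found in 8 of 139 wild-type and 94 of 488 knock-in neurons, which is 0.113% and 1.06% of the libraries. Otof at 2 or more was found in 3 and 57, or 0.0423% and 0.645%, and Glis3 at 2 or more in 6 and 105, or 0.0846% and 1.19%. Over all cells, Rorb at 3 or more was found in 10.2% and 12.7%, with intervals that did not overlap and a ratio of 1.24.

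Clustering the selected neurons alone, without 7 genes that differed between the libraries in the other excitatory neurons, gave 17 clusters, numbered by size. Their leading genes are the genes that formed them and are given as descriptions. With 1 library per genotype, a cluster drawn almost wholly from 1 library may stand for that library rather than for a kind of neuron. A gene counts as marked in a cluster by the same limits against the other excitatory neurons, and the share of all genes so marked rose as clusters became smaller.

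The clusters with the most marked upper-layer or layer 4 genes, 3, 8 and 5, came almost wholly from the knock-in library. Cluster 3, led by Stard8, Smoc2 and Nectin3, held 3 wild-type and 68 knock-in neurons, and 9 of 10 upper-layer genes were marked in it (15.6% of all genes). Cluster 8, led by Glis3, Otof and Matn2, held 0 wild-type and 41 knock-in neurons, with 9 of 10 upper-layer genes marked (21.1% of all genes). Against the 3 cells that a count of 0 allows, or 0.0423% of the wild-type library, its share was at least 11.0-fold higher in the knock-in library. Clusters 3 and 8 are both upper-layer-like by these markers. Of the markers, Calb1 is also on the dentate list and Nectin3 on the CA3 and CA2 list. Cluster 8 also had 3 of 9 dentate genes marked, Glis3, Calb1 and Plk5, and 2 of 8 CA3 and CA2 genes, Cpne4 and Nectin3. Cluster 3 had 2 dentate genes marked, Calb1 and Plk5, and 1 CA3 and CA2 gene, Nectin3. Cluster 5, led by Rorb, Pld5 and Thsd7a, held 3 wild-type and 63 knock-in neurons. It is layer 4-like by count, with 7 of 9 layer 4 genes marked (16.4% of all genes), beside 5 of 10 upper-layer genes. Rorb, a gene of the selection rule, was at 13.2 per 10000 in it and Kcnh5 at 11.2.

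Further clusters drawn mainly from the knock-in library had other genes. Cluster 1, with 5 wild-type and 77 knock-in neurons, was led by Sema3e, Hs3st2 and Etv1 and by a single outlying cell with Ttr; it had Il1rapl2 at 18.5 per 10000 and Cux2 at 0.61. No region list gave it 3 marked genes (13.5% of all genes were marked), so it stays unnamed. Cluster 12, with 0 wild-type and 17 knock-in neurons, had 5 of 5 claustrum genes marked (27.9% of all genes). These were Nr4a2, Gnb4, Ntng2, Oprk1 and Synpr, with Gnb4, a G protein subunit, at 6.07 per 10000 and Oprk1, the kappa opioid receptor, at 1.66. Cluster 9, with 1 and 21 neurons, had 3 of 10 entorhinal genes marked (22.4% of all genes): Reln at 4.45, Trps1 at 13.9 and Etv1. It also had 4 upper-layer and 3 layer 5 genes marked and is left unnamed. Cluster 15, with 0 and 15 neurons, was led by Trps1 at 35.0 and Megf11 and had Tshz2 at 36.2. It had 3 entorhinal, 3 near-projecting and 5 upper-layer genes marked (28.1% of all genes) and is unnamed too.

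Apart from cluster 15, clusters with high Tshz2 were found in both libraries. Cluster 2, led by Atp10b, Npsr1 and Sv2c, held 45 wild-type and 31 knock-in neurons, a ratio of library shares of 0.553, and was the 1 cluster with more wild-type than knock-in neurons. It had Tshz2 at 36.1 per 10000, Zmat4 at 16.7 and Pdzrn3 at 16.6, with 5 of 9 layer 4 genes marked (15% of all genes). Rorb was at the low end there, as the heat map of layer genes shows. Cluster 4, led by Cdc14a, Tcf7l1 and Prlr, held 22 and 44 neurons, a ratio of 1.61, with Tshz2 at 33.6. It had 4 of 5 near-projecting genes marked, Tshz2, Trhr, Vwc2l and Lypd1 (15.4% of all genes), beside 3 upper-layer and 3 layer 4 genes, and is left unnamed. Cluster 6, led by Trpm3 and Ntn4, held 18 and 26 neurons, a ratio of 1.16, with 5 of 9 layer 4 genes marked (14.7% of all genes) and Tshz2 at 31.6. Cluster 14, led by Smoc1 and Cdh7, held 7 and 8 neurons and had 3 near-projecting, 3 retrosplenial or presubicular and 4 upper-layer genes marked (21.9% of all genes).

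Taking the clusters in which more than 50% of neurons were Tshz2-high, 7 clusters held 113 wild-type and 164 knock-in neurons. The numbers were the same when Tshz2 was left out of the clustering. Cluster 7, led by Rerg, Plch1 and Ntng1, held 16 and 27 neurons, with Rxfp1 at 5.70 per 10000, Trps1 at 16.5 and Ntng1 at 35.5; 4 upper-layer and 4 layer 5 genes were marked (19.2% of all genes). Cluster 10, led by Cpa6 and Dcn, held 6 and 12 neurons. It had Il1rapl2 at 32.5, Fn1 at 1.99 and 4 of 10 entorhinal genes marked (21.7% of all genes), namely Reln, Wfs1, Lef1 and Nr4a2, beside 4 of 10 upper-layer genes. Cluster 11, led by Ebf1, Zfhx3 and Tle4, held 5 and 13 neurons. It had 3 of 8 layer 6 genes marked (23.9% of all genes), Foxp2, Tle4 at 6.97 and Hs3st4 at 19.8, beside 4 of 7 thalamic genes.

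**Figure D3:**
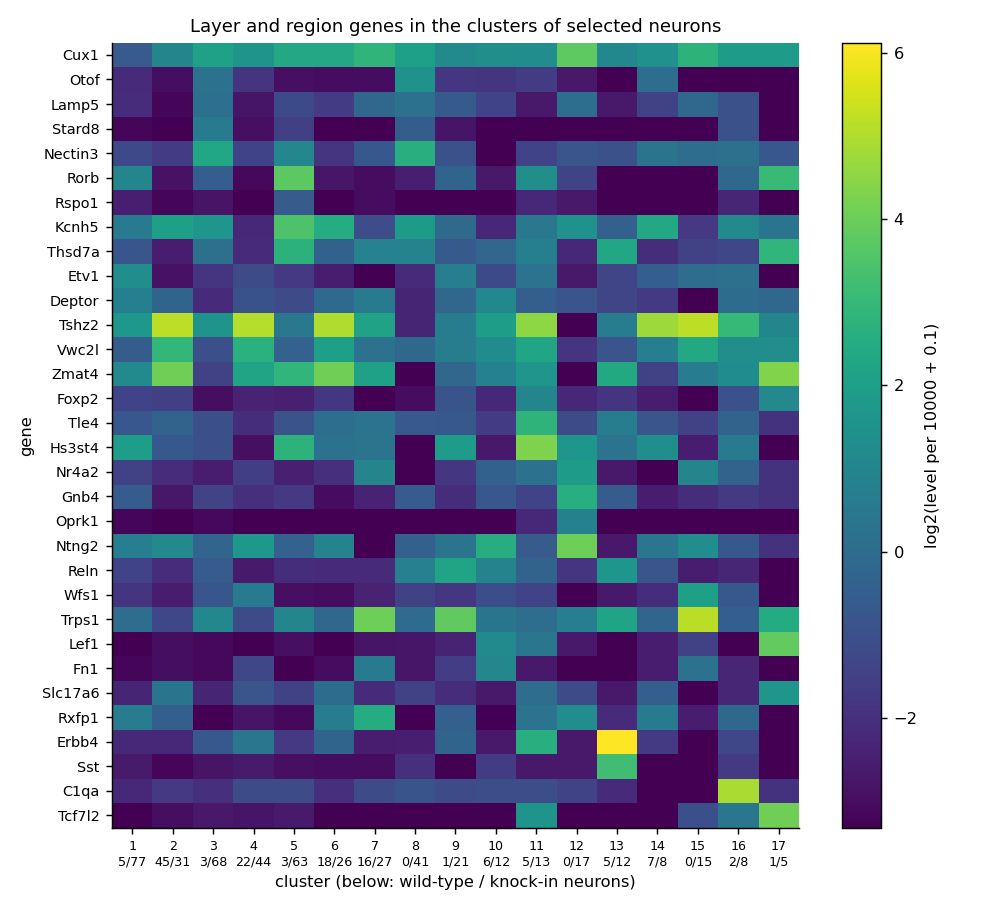
Level of 32 layer, region and cell type genes (rows) in the 17 clusters of selected neurons (columns, with neuron numbers by library below), as log2 of the level per 10000 plus 0.1. Tshz2 is bright in clusters 2, 4, 6, 11, 14 and 15, and Rorb in clusters 5 and 17. Otof and Nectin3 are bright in clusters 3 and 8, Gnb4 and Oprk1 in cluster 12, Erbb4 in cluster 13 and C1qa in cluster 16.

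The last 3 clusters had genes of other cells. Cluster 13, formed by 5 wild-type and 12 knock-in cells, had 8 of 12 interneuron genes marked (25.1% of all genes), with Erbb4 at 69.6 per 10000 and Sst among its leading genes, although Gad1 and Gad2 were limited by the rule. Cluster 16, with 2 and 8 cells, had 8 of 8 microglial genes marked (42.7% of all genes), and 4 cells that Scrublet called as doublets. Cluster 17, with 1 and 5 cells, had 6 of 7 thalamic genes marked (42.4% of all genes), with Tcf7l2 at 17.0 and Lef1 at 14.2. These 33 cells, 8 wild-type and 25 knock-in, were 5.76% and 5.12% of the selected neurons of their library. Over all selected neurons the summed microglial level was 2.79 per 10000 against 6.00 in the other excitatory neurons. At least 3 microglial genes reached 2 in 3 wild-type (2.16%) and 22 knock-in neurons (4.51%), against 5.86% and 8.16% of the other excitatory neurons. At least 3 oligodendrocyte genes did so in 1.91% of the selected and 17.4% of the other excitatory neurons. Scrublet called 0 wild-type and 6 knock-in selected neurons.

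**Figure D4:**
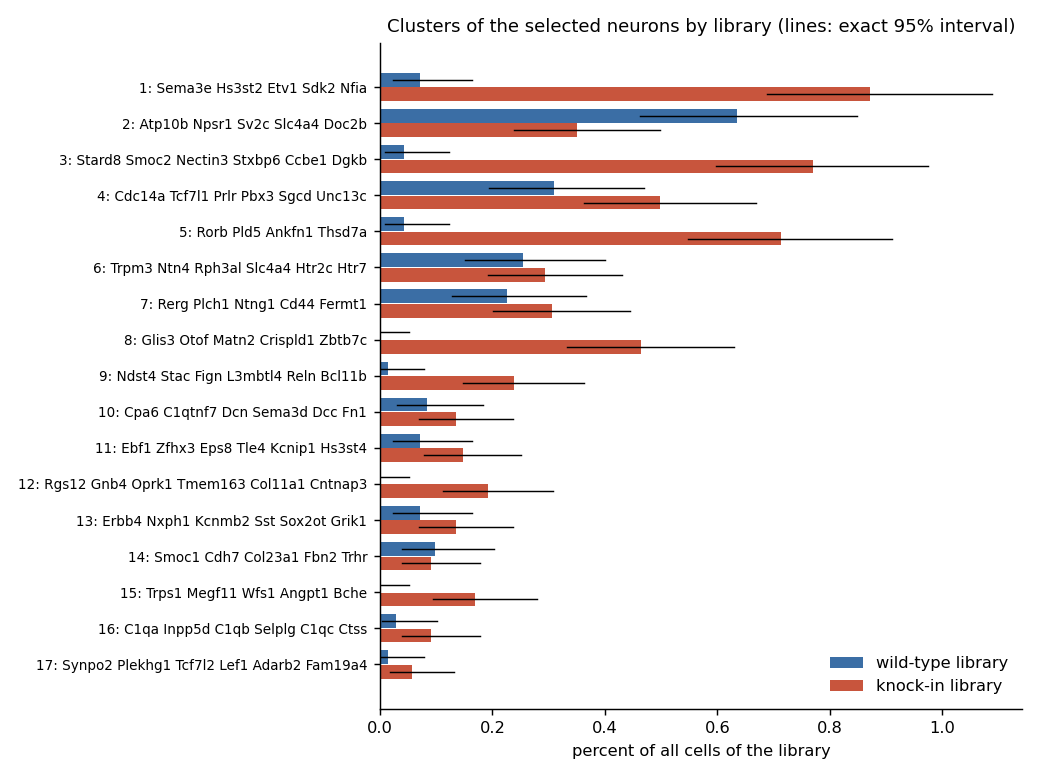
Share of each cluster of selected neurons in the wild-type (blue) and knock-in (red) library, as percent of all cells of the library, with exact 95% intervals for counting error as lines and leading genes as labels. Clusters 1, 3, 5 and 8 are almost wholly knock-in at 0.464 to 0.871% of that library, whereas cluster 2 is larger in the wild-type library.

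In a clustering of all 15930 cells into 37 clusters, 405 of the 627 neurons (64.6%) fell into 1 cluster of 647 cells led by Unc5d, Fhod3 and Efna5. That cluster made up 1.97% of the wild-type library (140 cells, 1.66 to 2.32%) and 5.74% of the knock-in library (507 cells, 5.26 to 6.24%). Selected neurons were 51 of its wild-type and 354 of its knock-in cells, so most of its wild-type cells were not selected. A further 111 neurons fell into a cluster of 190 cells led by genes that include Sgcz, Vwc2l and Pdzrn3; it made up 1.54% and 0.917% of the libraries, and the 111 were Tshz2-high without exception. The third, with 43 of the neurons and 63 cells, was led by genes that include Plch1 and Rxfp1. Of the rest, 19 lay in a cluster led by interneuron genes such as Gad2 and 7 in a cluster led by microglial genes such as P2ry12.

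Levels were last compared between the libraries within the selected neurons. Pigv (chromosome 4, 133660387 to 133672647, minus strand) had levels of 0.0581 and 0.0731 per 10000 and was above 0 in 5.04% and 6.97% of the neurons, so its transcript did not separate the genotypes. A gene was past the size rule when its level differed at least 2-fold with 0.1 added, reached 1 per 10000 in a library and was above 0 in at least 10% of that library's neurons. Of 2051 genes tested, 68 were past it (3.32%), of which knock-in neurons had 42 at higher (2.05%) and 26 at lower levels (1.27%). In the other excitatory neurons the rule gave 7 of 2028 genes (0.345%). Knock-in cells had 5 of these at higher levels (0.247%), Hdc, Gm14216, Gm17660, Rab40b and Ptgds, and 2 at lower levels (0.0986%), Abl1 and Sec22b. All 7 were past the rule in the selected neurons as well.

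Abl1 (chromosome 2, 31688376 to 31804227, plus strand), which encodes a kinase that acts on the cytoskeleton, fell from 5.73 to 0.512 per 10000 between wild-type and knock-in neurons (log2 ratio -3.25). Per neuron its median value was 5 for wild-type (0 to 17) and 0 for knock-in neurons (0 to 6), and the ranges overlapped. In the other excitatory neurons the log2 ratio was -2.88, so the difference was not a feature of the selected neurons alone. Hdc (chromosome 2, 126593667 to 126619299, minus strand), which makes histamine, was at 0.0218 and 6.31 (log2 ratio 5.72). Its value was at most 1 in wild-type neurons and had a median of 6 in knock-in neurons (highest 17). Gm14216 was at 0.0218 and 6.11, Gm17660 at 0.298 and 1.52, Rab40b, which acts in vesicle traffic, at 0.596 and 2.06, and Sec22b, a SNARE of the early secretory pathway, at 6.37 and 3.08.

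Among the other genes past the rule were genes that differ between the clusters of selected neurons. Rorb, which the selection rule used, was at 0.560 and 2.30 per 10000. Nectin3 rose from 0.320 to 1.76, Glis3 from 0.320 to 1.53 and Cdh13, a GPI-anchored cadherin, from 2.34 to 7.03. Tshz2 fell from 25.6 to 10.4 and Zmat4 from 10.2 to 4.29. With the 9 clusters that held at least 5 neurons of each library given equal weight, 18 genes were higher and 7 lower. Of these 25 genes, 10 were among the 68. Among the 9, clusters 1, 11 and 13 held 5 wild-type neurons each, cluster 10 held 6 and cluster 14 held 7. These 9 clusters were 1, 2, 4, 6, 7, 10, 11, 13 and 14, so clusters 3, 5 and 8, where Nectin3 and Rorb were highest, did not enter and interneuron cluster 13 did. For the genes of the missing clusters a ratio nearer to 0 follows from that choice. Under these weights the log2 ratio was -0.11 for Tshz2 instead of -1.29, -0.10 for Rorb instead of 1.86 and -0.16 for Nectin3 instead of 2.15. Those of Abl1 (-3.18) and Hdc (5.77) differed little from the pooled values.

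Within the Tshz2-high neurons alone, 26 of 1987 genes were past the size rule (1.31%), 23 with higher (1.16%) and 3 with lower levels (0.151%) in knock-in neurons. Leaving out clusters 13, 16 and 17 and 1 outlying cell with Ttr gave 19 and 3, and the microglial genes C1qa and C1qb and the receptor gene Erbb4 were no longer among them. The 7 genes shared with the other excitatory neurons were among these 22. Rorb was a further one, at 0.0539 and 1.13 per 10000 in that smaller set and above 0 in 1.79% and 15.3% of its neurons. Since the selection rule used Rorb, no direction is given for it. Cdh13 was another, at 1.03 and 2.52. Tshz2-low neurons gave 119 of 2179 genes (5.46%), 42 with higher (1.93%) and 77 with lower levels (3.53%), but against 26 wild-type neurons. Ttr, a gene of the choroid plexus, was at 0.567 and 5.42 over all selected neurons, which rested on 1 knock-in cell with a value of 2265, where the next highest value among the neurons was 41. Without that cell and the 3 clusters, Ttr was at 0.538 and 0.732, and 74 of 2032 genes were past the rule over all selected neurons (3.64%), 47 with higher (2.31%) and 27 with lower levels (1.33%).

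**Figure D5:**
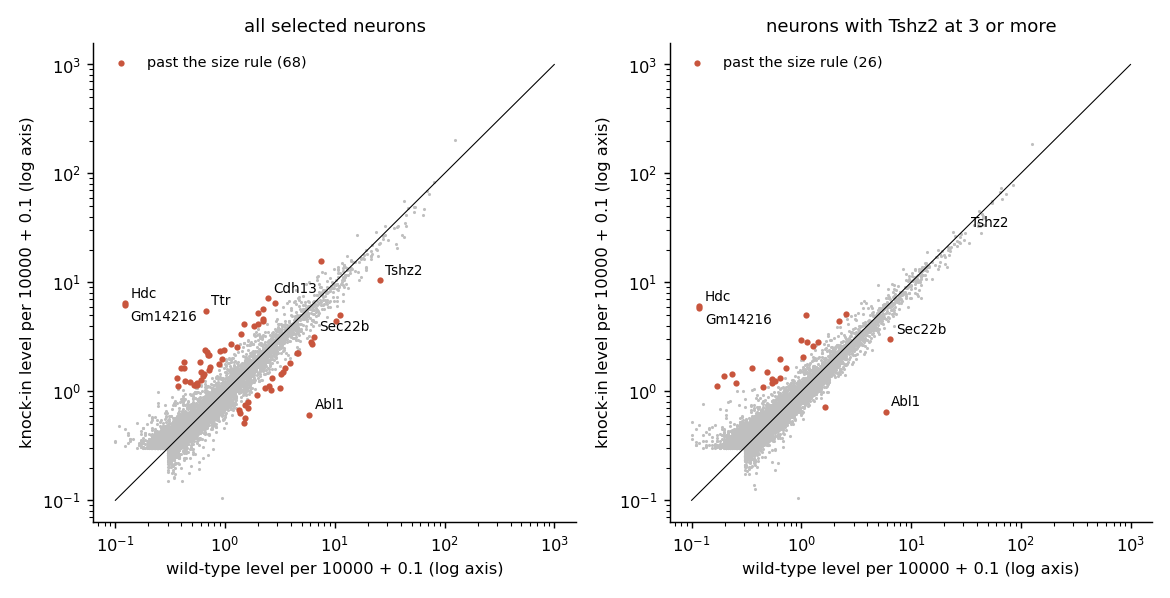
Level per 10000 plus 0.1 of each gene above a low level in the wild-type (horizontal) and knock-in (vertical) library, on log axes, for all selected neurons (left) and those with Tshz2 at 3 or more (right), with genes past the size rule in red. There are 68 red genes on the left and 26 on the right, and Abl1, Hdc and Gm14216 lie far from the diagonal in both panels while Tshz2, which chose the neurons on the right, is near it there.

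The Eph receptor, ephrin and Abl genes are named in the title of the study. Of the 9 tested, 2 had lower levels past the rule in the knock-in selected neurons, Abl1 and Ephb2, and 0 had higher levels, where 1.27% of all tested genes had lower and 2.05% higher levels. Ephb2, a receptor for B-type ephrins, was at 1.87 and 0.824 per 10000, which is -1.09 on the log2 scale. It was at -0.51 with equal cluster weights, -0.62 in the Tshz2-high neurons and -0.51 in the other excitatory neurons, under the size rule in each. Epha3 was at 4.39 and 2.47, Epha4 at 3.91 and 3.23, Epha5 at 7.38 and 6.57, and Abl2 at 1.51 and 1.40. Efna5, a gene of the selection rule, had a log2 ratio of 0.60 in all selected neurons and -0.18 with equal cluster weights, so no direction is given for it. Of the genes for GPI-anchored proteins, 2 of 17 tested had higher levels in knock-in neurons, Cdh13 and Negr1, and 0 had lower levels, beside the same 2.05% and 1.27%. With equal cluster weights their log2 ratios were 0.37 and 0.14.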

How the data were processed

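Single-cell 3′ transcripts were measured in 1 pooled wild-type and 1 pooled Pigv341E library. The authors deposited 1 table of 30223 genes by 15930 cells, treated here as a score, since its whole numbers had narrow totals per cell and the table is named as depth-corrected. The submitters' processing notes name Seurat 3.0.0 and GRCm38. The aligner, the cell filter and doublet removal are not given in the sources used here. Gene positions are from GENCODE M21 on GRCm38.

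The members, limits and gene lists were chosen with earlier results of these data known, and the Tshz2 limit after its values were seen. Comparison sets were excitatory neurons with Zbtb20 at 4 or more and either Prox1 at 3 or more (dentate) or 2 of 5 marker genes at 2 or more (CA1, among them Mpped1; CA3), and those with Fn1 at 3 or more. Shares have exact Clopper-Pearson 95% intervals. Clustering used scanpy 1.11.5 (10000 per cell, log, 2000 variable genes, 30 components, 15 neighbours, resolution 1). Scrublet, at an expected rate of 6%, called 61 wild-type (0.860%) and 209 knock-in cells (2.37%), which were kept. A gene of these lists is counted but not reported here. Genes named are those of the rule, list genes that carry a count, and the genes of largest ratio. The size rule was also run on simulated data with 1 mean per gene and changes of 3-fold or more. It recovered 198 of 200 changed genes and called 0 unchanged ones. The simulation had no mixture of clusters, so it cannot show how often a difference in cluster make-up puts a gene past the rule.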

Additional observations from a re-analysis of the deposited data

How the results depend on the processing

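The share of selected neurons moved with most limits, and it was higher in the knock-in library under each alternative run. Wild-type and knock-in shares were 1.49% and 5.01% with Mef2c at 5 or more, 3.23% and 7.85% with 1 of the 5 genes, 0.677% and 2.97% with 3 (ratio 4.38), 1.41% and 4.92% with Zbtb20 at 1 or less, 5.20% and 8.82% with no limit on Zbtb20 (ratio 1.69), 1.13% and 3.98% without Efna5, 0.705% and 2.35% with Slc17a7 at 2 or more, and 0.916% and 3.20% with cells thinned to 4000. Among excitatory neurons the knock-in share was 6.56%. With Tshz2 at 10 or more the knock-in share was 1.66%. Thinning gave Tshz2-high shares of 0.564% and 0.543% (ratio 0.963, the opposite direction, cause not tested) and a Tshz2-low knock-in share of 2.66%.

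Genes past the size rule numbered 22 higher and 9 lower with 0.5 added, 65 higher at a level of 0.5, 122 and 46 with no filter, 85 higher with values of 1 set to 0, 90 and 72 with Slc17a7 at 2 or more, 18 and 7 with equal cluster weights, and 23 and 3 in Tshz2-high neurons. Equal weights turned Nectin3 (-0.16) and Rorb (-0.10), and Slc17a7 at 2 or more turned Ttr (-0.0098); the cause was not tested for the last. No paired analysis was possible because each genotype has 1 library. Depth is unknown, so absence of a gene cannot be told apart from low capture.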
